A study of Mus musculus with 16 samples.

Results

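Clade B serpins are protease inhibitors that mostly stay inside the cell, and 7 of them were followed here across fetal liver: Serpinb1a, Serpinb2, Serpinb6a, Serpinb6b, Serpinb8, Serpinb9 and Serpinb10. They are 7 of 19934 gene symbols that the array annotation pairs with a probe set of their own, and each had 1 such probe set. The list was drawn up by name and function with earlier results in view, and it was in part selected on measured values: Serpinb2 and Serpinb10 were among the largest rises in WT/GATA1s against WT. Values of that comparison are therefore a description, with no p-value, and nothing is read from how many members lay past the threshold there. The samples were mouse fetal liver cells, taken as single-cell suspensions at embryonic day 14.5 (E14.5) and 12.5 (E12.5). At each stage there were 4 genotypes: ERG/GATA1s, which carried an ERG transgene and the GATA1s allele; WT/GATA1s, with the GATA1s allele alone; ERG Tg, with the transgene alone; and WT, wild type. GATA1 is a factor that drives the red cell and platelet lineages, GATA1s is its short isoform, and ERG is an ETS family factor active in blood stem cells. All 8 groups held 2 arrays, 1 labelled female and 1 labelled male. Not given in the sources used here are the promoter of the transgene, how many copies of the X-linked GATA1s allele females had, and any pooling of embryos, and p-values therefore reflect only how these samples spread.

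Values are log2 signal per probe set, in which a difference of 1 is a change of 2-fold, and levels of different genes cannot be ranked because each probe set has its own brightness. Probe sequences were not used here, so any signal shared between close serpin relatives was not checked. Precision is limited by the number of arrays, with a median residual SD of 0.162 per probe set around the fitted group and sex effects. A level of 3.74, the 30th percentile of all values, was taken as dim. Markers matched the labelled tissue, since Alb, the albumin gene of liver cells, had a signal of 10.95 to 12.22 in every array. Sex markers opposed the label in 3 arrays. In E14.5 ERG/GATA1s the array labelled female had Y-linked signal and an Xist signal of 4.22, and the E12.5 ERG/GATA1s and E12.5 WT/GATA1s arrays labelled male had Xist signals of 9.51 and 9.83. The male-labelled E12.5 WT and E14.5 ERG Tg arrays had both kinds of signal. By these markers sex was not balanced over genotypes. Both E14.5 ERG/GATA1s arrays had low Xist (4.22 and 4.19), and all E12.5 arrays with the GATA1s allele had high Xist (9.51 to 10.08). Labelled sex as a covariate does not correct for this, so sex and genotype are partly confounded in comparisons with these groups. Where leaving out the 3 arrays that opposed their label ended a call on a gene named here, the value without them stands beside it. For genes named from a list, the number of the list called without them may stand instead. In whole tissue, fewer cells of a type and less RNA per cell cannot be told apart.

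A serpin offers its reactive loop to a protease as bait, and once the loop is cut the serpin snaps shut and traps the enzyme. Clade B members lack a classical secretion signal and several are known for protecting blood cells from the proteases those cells store. Serpinb1a inhibits the serine proteases of neutrophil granules, Serpinb2 is plasminogen activator inhibitor 2 and inhibits urokinase, and Serpinb9 inhibits the cytotoxic protease granzyme B. Human SERPINB6 inhibits cathepsin G, human SERPINB8 inhibits furin, and human SERPINB10, also named bomapin, was described in bone marrow. The genes lie in 2 clusters. Serpinb2, Serpinb10 and Serpinb8 lie on chromosome 1, and Serpinb1a, Serpinb6b, Serpinb9 and Serpinb6a lie on chromosome 13.

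Serpinb2 and Serpinb10 were higher in both kinds of GATA1s carrier than in embryos of the same stage without the allele. In the arrays labelled female and male, Serpinb2 signal at E14.5 was 6.51 and 6.82 in ERG/GATA1s, 5.77 and 6.58 in WT/GATA1s, 4.57 and 4.43 in ERG Tg, and 5.14 and 4.8 in WT. Its E12.5 signal was 6.60 and 6.55 in ERG/GATA1s, 7.84 and 7.73 in WT/GATA1s, 5.48 and 5.05 in ERG Tg, and 6.12 and 4.98 in WT. No carrier array overlapped a non-carrier array of its stage, and the E12.5 WT array labelled female came closest. Serpinb10 signal at E14.5 was 7.56 and 7.56 in ERG/GATA1s, 6.82 and 7.59 in WT/GATA1s, 4.51 and 5.14 in ERG Tg, and 6.24 and 6.20 in WT. At E12.5 the Serpinb10 signal was 7.54 and 6.97 in ERG/GATA1s, 7.98 and 7.95 in WT/GATA1s, 6.47 and 5.43 in ERG Tg, and 6.77 and 5.29 in WT. The carriers again lay above every non-carrier of their stage, but at E12.5 the gap between 6.97 and 6.77 was small beside the spread of the WT and ERG Tg pairs. When the 8 groups were put in order of their means, E12.5 WT/GATA1s stood first for both genes (7.79 for Serpinb2, 7.97 for Serpinb10) and E14.5 ERG Tg last (4.50 and 4.83), each clear of the next group. Between these, each Serpinb2 group overlapped its neighbour. For Serpinb10, E14.5 ERG/GATA1s lay just above E12.5 ERG/GATA1s, E14.5 WT/GATA1s lay clear of E14.5 WT, and the other neighbours overlapped.

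**Figure D1:**
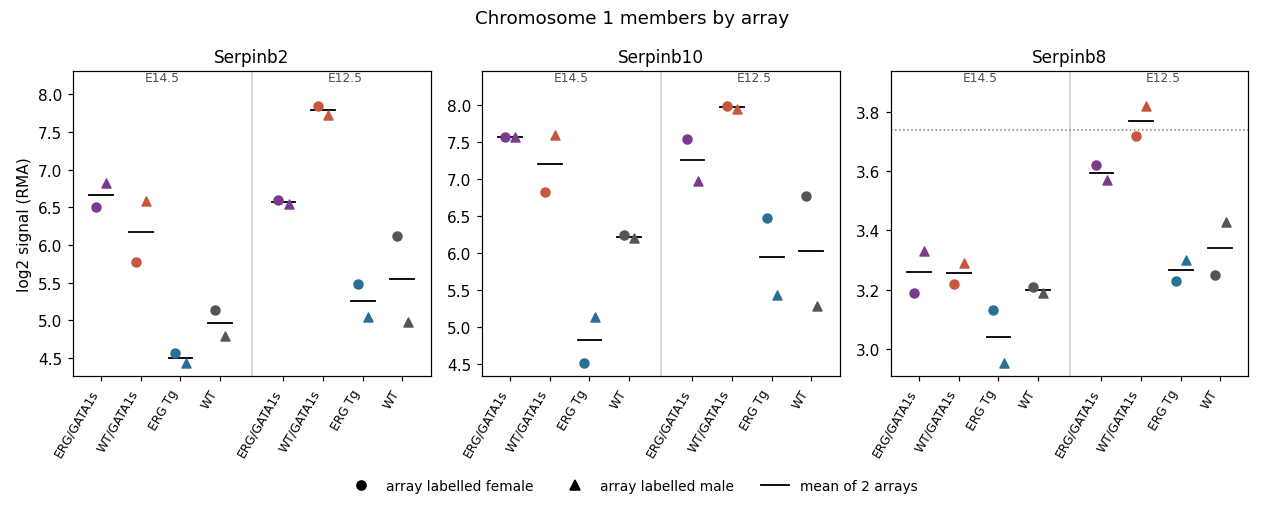
Log2 signal of Serpinb2, Serpinb10 and Serpinb8 in each of the 16 arrays, by genotype within each stage; bars are the mean of 2 arrays and the dotted line is the dim level of 3.74. Serpinb2 and Serpinb10 lie higher in both GATA1s genotypes than in ERG Tg and WT of the same stage, and Serpinb8 passes the dim level in 1 array.

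Whether the GATA1s allele changes these genes when the ERG transgene is present was asked with ERG/GATA1s against ERG Tg, which shares no array with WT/GATA1s against WT. In limma's test across 16258 probe sets, with Benjamini-Hochberg adjustment, 3 of the 6 members tested rose and none fell. Of all probe sets, 9.02% were called in this comparison. Serpinb10 rose by 2.02 ± 0.29 (SE; 4.06-fold; adjusted p = 0.000944) and Serpinb2 by 1.74 ± 0.22 (3.33-fold; adjusted p = 0.000422). Serpinb1a, the inhibitor of neutrophil proteases, rose by 1.18 ± 0.14 (2.27-fold; adjusted p = 0.000306). With arrays paired by stage and labelled sex, each was higher in 4 of 4 pairs. Serpinb6a (0.03), Serpinb6b (-0.32) and Serpinb9 (0.04) did not pass, and the median change of the 6 tested members was 0.61 against -0.0025 over all probe sets. Serpinb2 and Serpinb10 were chosen on their rise with the same allele. This median and the counts, here and by stage, are therefore not read as a result about the clade. Without the 3 arrays of doubtful sex label, Serpinb1a rose by 1.26 (adjusted p = 0.0202), Serpinb2 by 1.83 (adjusted p = 0.0268) and Serpinb10 by 2.16 (adjusted p = 0.0474).

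The stages were then taken one at a time. At E14.5 the same comparison called 3 of the 6 members, all higher, against 7.34% of all probe sets. Serpinb10 rose by 2.74 ± 0.41 (adjusted p = 0.00118), Serpinb2 by 2.17 ± 0.31 (adjusted p = 0.000825) and Serpinb1a by 1.84 ± 0.20 (adjusted p = 0.000151). With only the arrays compared in the fit, all 3 adjusted p-values were 0.0548, and without the 3 doubtful arrays that of Serpinb10 was 0.0618. At E12.5 no member passed limma's test, 3 of 6 had an unadjusted p under 0.05, and 1.05% of all probe sets were called. The E12.5 changes were 1.31 ± 0.31 for Serpinb2 (adjusted p = 0.0543), 1.31 ± 0.41 for Serpinb10 (adjusted p = 0.129) and 0.52 ± 0.20 for Serpinb1a (adjusted p = 0.218). Other settings moved these E12.5 results past the threshold. With only the 4 arrays compared in the fit the adjusted p was 3.9e-07 for Serpinb2 and 4.29e-07 for Serpinb10. Fitting group means and a sex effect to 4 arrays leaves little to measure the spread, so these small p-values are not read as strong evidence. With labelled sex as a block within each stage the adjusted p was 0.0355 for Serpinb2 and 0.0384 for Serpinb10. Serpinb2 also passed with the stricter filter on dim probe sets (0.0438), after a further quantile normalization (0.0421) and in 7 of the 16 fits that left out 1 array (0.0291 to 0.0449). Without the 3 doubtful arrays the E12.5 change was 1.21 for Serpinb2 (adjusted p = 0.51), 1.47 for Serpinb10 (adjusted p = 0.574) and 0.69 for Serpinb1a (adjusted p = 0.528). Whether the effect of GATA1s differs between stages, averaged over both ERG backgrounds, passed the test for 0 of 6 members in limma's fit, with 1 at an unadjusted p under 0.05 and 2.24% of probe sets called.

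The WT/GATA1s against WT values, which took part in the choice of the members, were 1.72 ± 0.22 for Serpinb2 and 1.46 ± 0.29 for Serpinb10, each higher in 4 of 4 pairs. The choice of members fixed that these 2 of the 6 tested members lay past the threshold, where 3.81% of all probe sets did. Without the 3 doubtful arrays the Serpinb10 difference was 1.41, and it was 1.10 without the male-labelled E12.5 WT array. By stage, Serpinb2 was 1.21 higher at E14.5 and 2.24 higher at E12.5, and Serpinb10 was 0.99 higher at E14.5 and 1.94 higher at E12.5. Serpinb1a differed by 0.07 ± 0.14 between WT/GATA1s and WT. Its 95% interval was -0.24 to 0.37 there, and 0.88 to 1.48 in ERG/GATA1s against ERG Tg. The difference between these effects over both stages, 1.12 ± 0.20, was not past the threshold (limma, adjusted p = 0.179). At E12.5 Serpinb2 was 1.21 ± 0.31 lower in ERG/GATA1s than in WT/GATA1s, in 2 of 2 pairs (log2 difference -1.21). The WT/GATA1s arrays took part in the choice of Serpinb2, so this too is a description, with no p-value.

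**Figure D2:**
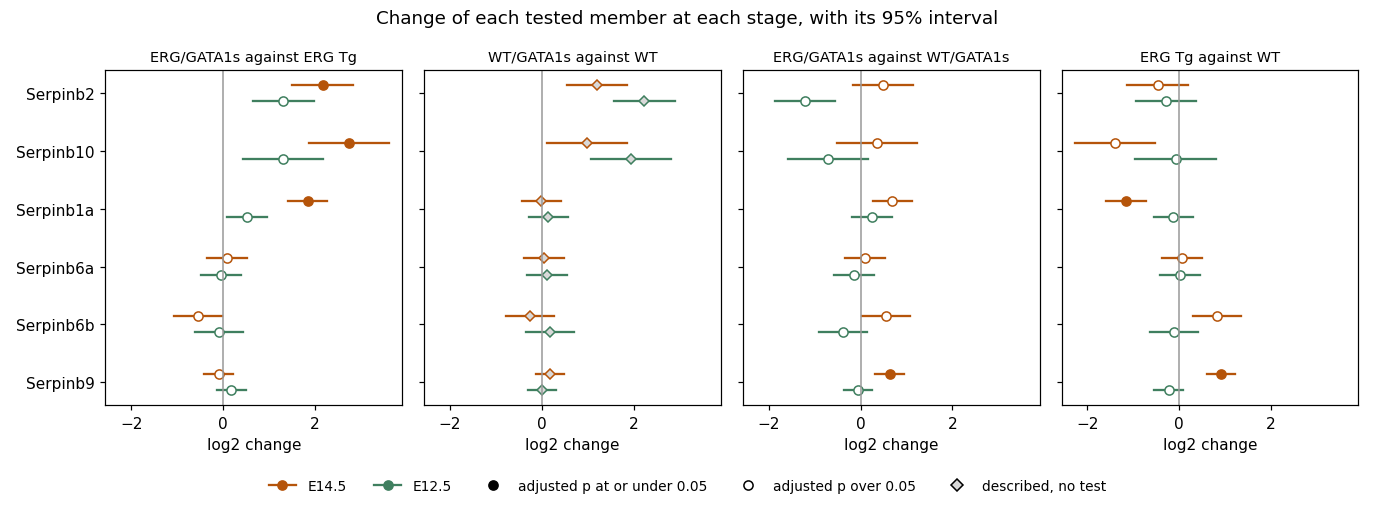
Log2 change of the 6 tested members in 4 genotype comparisons, E14.5 above E12.5, with 95% intervals from limma; filled circles passed an adjusted p of 0.05, and diamonds mark the comparison that took part in choosing the members. Serpinb2, Serpinb10 and Serpinb1a stand to the right at E14.5 in ERG/GATA1s against ERG Tg, and Serpinb1a and Serpinb9 lie on opposite sides of 0 at E14.5 in ERG Tg against WT.

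Serpinb8, which lies beside Serpinb10, stayed dim. Its signal was 3.19 and 3.33 in E14.5 ERG/GATA1s, 3.22 and 3.29 in E14.5 WT/GATA1s, 3.13 and 2.95 in E14.5 ERG Tg, and 3.21 and 3.19 in E14.5 WT. At E12.5 it was 3.62 and 3.57 in ERG/GATA1s, 3.72 and 3.82 in WT/GATA1s, 3.23 and 3.30 in ERG Tg, and 3.25 and 3.43 in WT. The E12.5 carriers lay above the other arrays, by differences of under 1 log2 unit and around the dim level. With 1 array of 16 above that level it was left out of the test, and with no filter its change in ERG/GATA1s against ERG Tg was 0.28 ± 0.08 (limma, adjusted p = 0.0549). No fold is given for it.

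The promoters of the chromosome 1 members are shown because Serpinb2 and Serpinb10 moved together and lie side by side. RefSeq windows of 300 bases (250 before to 50 after the start, GRCm38.p6) were held for 6 of the 7 members. Capitals mark letters of 3 motifs, which were searched on both strands and did not overlap each other in these windows. The letters taken for a GATA factor were AGATAA, or the same letters with T in the first place or G in the last. For ETS factors such as ERG they were AGGAAG, or the same letters with C in the first place. The letters of AP-1, the factor formed by Fos and Jun proteins, were TGANTCA. The windows are chr1:107511173-107511472 for Serpinb2, chr1:107528753-107529052 for Serpinb10 and chr1:107589756-107590055 for Serpinb8, all on the plus strand.
Serpinb2: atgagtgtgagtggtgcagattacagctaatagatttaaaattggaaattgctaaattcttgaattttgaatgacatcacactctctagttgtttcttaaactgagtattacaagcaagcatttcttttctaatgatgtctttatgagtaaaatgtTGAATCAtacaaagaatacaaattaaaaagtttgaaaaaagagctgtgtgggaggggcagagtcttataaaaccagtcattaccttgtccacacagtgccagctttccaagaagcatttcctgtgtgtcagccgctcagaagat
Serpinb10: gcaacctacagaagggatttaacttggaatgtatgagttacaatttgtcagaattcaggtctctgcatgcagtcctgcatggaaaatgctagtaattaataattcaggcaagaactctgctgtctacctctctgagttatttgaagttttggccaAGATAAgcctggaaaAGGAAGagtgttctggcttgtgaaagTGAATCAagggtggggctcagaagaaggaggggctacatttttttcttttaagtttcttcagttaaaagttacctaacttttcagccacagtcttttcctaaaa
Serpinb8: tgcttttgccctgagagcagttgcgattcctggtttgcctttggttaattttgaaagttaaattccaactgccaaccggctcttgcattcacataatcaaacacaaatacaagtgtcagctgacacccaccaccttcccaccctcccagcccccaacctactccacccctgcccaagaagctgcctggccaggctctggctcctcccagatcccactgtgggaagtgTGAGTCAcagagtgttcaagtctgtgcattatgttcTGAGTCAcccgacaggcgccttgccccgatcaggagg
All 3 windows hold an AP-1 match, which begins 94 bases before the start in Serpinb2, 54 before it in Serpinb10, and 23 before and at base 14 after it in Serpinb8. An AP-1 match stands in 7.81% of the 32851 promoter windows of the table. Serpinb10 also holds a GATA match 95 bases before its start and an ETS match 80 before it, which stand in 29.8% and 46.5% of all windows. The table's second Serpinb2 window begins further downstream and holds a GATA match 41 bases before its own start. These matches are letters in a window and no measure of binding.

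Several of the gene lists held members that passed in ERG/GATA1s against ERG Tg. Of 15 measured genes of the megakaryocyte and platelet lineage, 13 rose and none fell in ERG/GATA1s against ERG Tg (median 1.32), led by Mmrn1 (3.01), which carries factor V in platelet granules, Itgb3 (1.95), a subunit of the fibrinogen receptor, and Rgs18 (1.78). Their mean signal at E14.5 was 8.99 and 8.87 in ERG/GATA1s, 8.32 and 8.94 in WT/GATA1s, 7.18 and 7.38 in ERG Tg, and 7.59 and 7.63 in WT. The E12.5 means were 8.47 and 8.22 in ERG/GATA1s, 9.0 and 8.97 in WT/GATA1s, 7.50 and 7.44 in ERG Tg, and 8.02 and 7.36 in WT, so the E12.5 WT array labelled female was the highest non-carrier here as it was for Serpinb2 and Serpinb10. Of 16 immediate early and stress genes, 10 rose and none fell (median 0.70), led by Fosb (2.38), Ccl3 (1.83) and Jun (1.48), where Fosb and Jun encode AP-1 subunits. Of 12 erythroid genes, 4 fell and none rose over both stages (median -0.38), namely Tfrc (-0.69), Rhd (-0.64), Epor (-0.47) and Klf1 (-0.38), and 7 fell at E14.5 (median -0.73). Without the 3 doubtful arrays, 9 of the 15 megakaryocyte and platelet genes and 7 of the 16 immediate early and stress genes rose, and limma called 0 of the 12 erythroid genes over both stages and 1 at E14.5. The mean signal of the immediate early and stress genes at E14.5 was 6.36 and 6.35 in ERG/GATA1s, against 5.18 and 5.12 in ERG Tg. The part of these groups in the serpin changes was not tested.

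The genes whose levels ran closest to Serpinb2 and Serpinb10 were searched over 15741 genes and all 16 arrays. For Serpinb2 the highest Pearson correlations were with F2rl2 (0.972), a thrombin receptor gene, Cytip (0.964) and Cpeb2 (0.961), and Serpinb10 ranked 16 (0.925). For Serpinb10 they were with Mpig6b (0.969), an inhibitory receptor of megakaryocytes, Fcer1g (0.966) and Rgs18 (0.963). Serpinb2 and Serpinb10 correlated at 0.933 over the 8 arrays of E14.5 and 0.957 over the 8 of E12.5. The arrays share groups, so these values describe common patterns over genotype and stage and carry no test.

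The genes of the plasminogen activators, known targets of Serpinb2, did not pass in ERG/GATA1s against ERG Tg. Plau, the urokinase gene, ran from 4.31 to 5.06 over all arrays, and Plat, the tissue plasminogen activator gene, from 4.02 to 4.54. In that comparison Plau differed by 0.15 ± 0.12 (adjusted p = 0.466) and Plat by -0.03 ± 0.10 (adjusted p = 0.901). Plaur, the receptor that holds urokinase at the cell surface, was the 1 of 5 measured plasminogen activation genes that rose, by 0.94 ± 0.13 (adjusted p = 0.000725; 1.07 and 0.0195 without the 3 doubtful arrays). Plaur signal at E14.5 was 5.78 and 5.82 in ERG/GATA1s, 5.23 and 5.71 in WT/GATA1s, 4.94 and 4.9 in ERG Tg, and 4.87 and 4.88 in WT. The carriers did not overlap the non-carriers of that stage.

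Genes next to the 2 serpin clusters were read in RefSeq gene order. On chromosome 1 these were Bcl2, Kdsr, Vps4b and Dsel, and on chromosome 13 Gmds, Wrnip1, Nqo2, Bphl and Tubb2a, with Cdh7, Cdh19 and Mylk4 too dim to test. None of those tested passed in ERG/GATA1s against ERG Tg, where the changes ran from -0.25 in Gmds to 0.30 in Tubb2a (smallest adjusted p = 0.148).

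Serpinb1a was lowest in E14.5 ERG Tg, as Serpinb2 and Serpinb10 were, but its WT/GATA1s and WT arrays overlapped at each stage. Its signal at E14.5 was 6.88 and 6.62 in ERG/GATA1s, 5.88 and 6.24 in WT/GATA1s, 5.01 and 4.81 in ERG Tg, and 6.21 and 5.93 in WT. The E12.5 values were 6.87 and 6.28 in ERG/GATA1s, 6.35 and 6.30 in WT/GATA1s, 6.29 and 5.82 in ERG Tg, and 6.52 and 5.85 in WT. Both E14.5 ERG Tg arrays lay below the other 14, and when the 8 group means were put in order each of the others overlapped its neighbour. In ERG Tg against WT at E14.5, Serpinb10 fell by 1.395 ± 0.41 and Serpinb2 by 0.47 ± 0.31. Neither passed limma's test (adjusted p = 0.13 and 0.795), though Serpinb10 did with labelled sex as a block within each stage (0.0214). Serpinb1a fell by 1.16 ± 0.20 in the same comparison (2.23-fold; limma, adjusted p = 0.00839; lower in 2 of 2 pairs). In ERG/GATA1s against WT/GATA1s at E14.5 it differed by 0.69 ± 0.20 and did not pass (adjusted p = 0.119), though it did with array weights (0.0215) and without the male-labelled E14.5 WT/GATA1s array (0.0312).

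The difference between these 2 effects of ERG, the ERG by GATA1s interaction, was tested directly. At E14.5 it was 1.85 ± 0.28 for Serpinb1a (limma, adjusted p = 0.021), the 1 member of 6 that passed, beside 0.0984% of all probe sets. The next largest was Serpinb10 (1.75 ± 0.58), a description, since WT/GATA1s against WT is part of this difference. Over both stages 0 of 6 members passed limma's interaction test, 1 had an unadjusted p under 0.05, and 0.0123% of probe sets were called. The E14.5 call was lost without any 1 of 6 arrays of that stage (the WT, ERG Tg, WT/GATA1s and ERG/GATA1s arrays labelled female and the ERG Tg and ERG/GATA1s arrays labelled male), where the adjusted p was 0.0658 to 0.145. It was 0.249 without the 3 doubtful arrays, with an interaction of 1.85. The call was also lost with no filter on dim probe sets (adjusted p = 0.0601), each array centred on its median (0.0642), no sex term (0.0883), the Y-linked level as covariate (0.0607) and all probe sets kept (0.0529).

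The 3 neutrophil proteases that Serpinb1a inhibits are made from Elane (neutrophil elastase), Prtn3 (proteinase 3) and Ctsg (cathepsin G), and at E14.5 they had the same low point. Elane signal at E14.5 was 9.20 and 8.86 in ERG/GATA1s, 7.66 and 8.39 in WT/GATA1s, 6.56 and 6.85 in ERG Tg, and 8.01 and 8.0 in WT. Prtn3 signal was 8.94 and 8.63 in ERG/GATA1s, 7.31 and 7.72 in WT/GATA1s, 6.39 and 6.57 in ERG Tg, and 7.71 and 7.44 in WT. Ctsg signal was 8.51 and 7.98 in ERG/GATA1s, 6.79 and 7.64 in WT/GATA1s, 6.10 and 6.27 in ERG Tg, and 7.88 and 7.50 in WT. For each of the 3 genes, both ERG Tg arrays were the lowest of the stage and both ERG/GATA1s arrays the highest. At E12.5 Elane had its lowest group mean in ERG/GATA1s (7.745), where Serpinb1a had its highest of that stage (6.575). The E12.5 mean of Prtn3 was highest in ERG/GATA1s too (8.35), and equal in ERG Tg and WT (8.04).

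In ERG/GATA1s against ERG Tg at E14.5, Elane rose by 2.33 ± 0.22 (adjusted p = 5.62e-05), Prtn3 by 2.31 ± 0.19 (adjusted p = 3.26e-05) and Ctsg by 2.06 ± 0.30 (adjusted p = 0.000949). In ERG Tg against WT at E14.5, which shares the ERG Tg arrays, Elane fell by 1.30 (adjusted p = 0.00764), Prtn3 fell by 1.10 (adjusted p = 0.00829) and Ctsg fell by 1.51 (adjusted p = 0.0188). Without the 3 doubtful arrays Ctsg passed in neither (adjusted p = 0.069 and 0.0957), while Elane (0.0165 and 0.0395) and Prtn3 (0.00686 and 0.0323) passed in both. Of 12 measured proteases on a list of clade B serpin targets, these 3 were the ones called in that comparison, and the other 9, Plau, Plat and Furin among them, were not. In WT/GATA1s against WT, averaged over both stages, the differences were 0.06 for Elane, 0.07 for Prtn3 and 0.17 for Ctsg. For Ctsg the direction differed by stage. Its mean was 7.215 in WT/GATA1s and 7.69 in WT at E14.5, and 6.115 in WT/GATA1s and 5.295 in WT at E12.5. At E12.5 Ctsg signal was 6.37 and 5.74 in ERG/GATA1s and 5.56 and 4.92 in ERG Tg, so Ctsg was also higher at E14.5 than at E12.5 (1.66 ± 0.15, adjusted p = 1.03e-06), whereas Serpinb1a was lower.

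**Figure D3:**
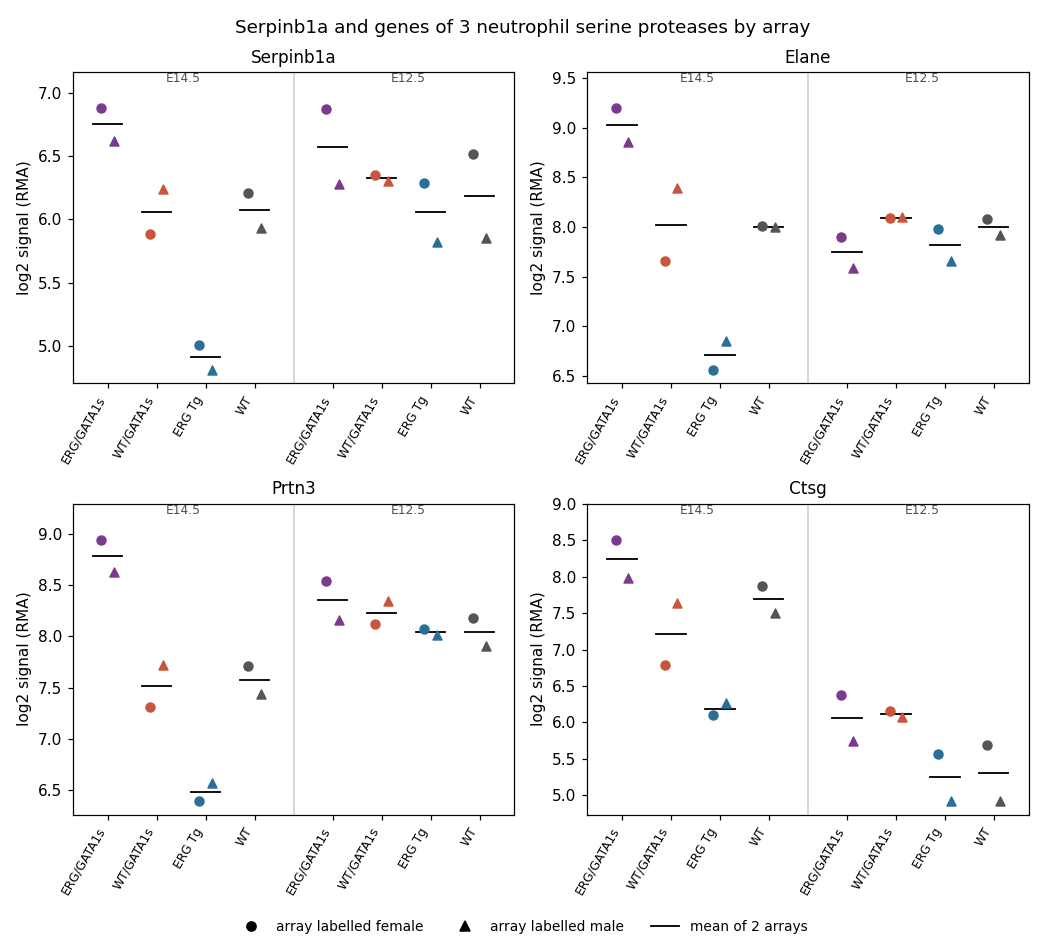
Log2 signal of Serpinb1a and of Elane, Prtn3 and Ctsg, genes of 3 neutrophil serine proteases, in each of the 16 arrays; bars are the mean of 2 arrays. In all 4 panels the E14.5 ERG Tg arrays are the lowest of their stage and the E14.5 ERG/GATA1s arrays the highest.

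Prtn3 was also the gene closest to Serpinb1a over all 16 arrays (Pearson r = 0.933), followed by Tyrobp (0.929), a signalling adaptor of myeloid cells, and S100a8 (0.914), a calcium-binding protein of neutrophils. Of 16 measured genes of the granulocyte and monocyte lineage, 14 rose and none fell in ERG/GATA1s against ERG Tg (median 1.21). In ERG Tg against WT at E14.5, 5 fell and none rose (median -1.01), Elane, Prtn3 and Ctsg among them. With the 3 doubtful arrays left out, 7 rose in the first comparison and 3 fell in the second. Their mean signal at E14.5 was 7.79 and 7.44 in ERG/GATA1s, 6.77 and 7.35 in WT/GATA1s, 6.0 and 6.15 in ERG Tg, and 7.41 and 6.72 in WT. No gene of that list was below the dim level in any array. Their part in the Serpinb1a values was not tested.

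Serpinb9, which protects cells from granzyme B, was the member that rose in ERG Tg at E14.5. Its signal at E14.5 was 4.46 and 4.42 in ERG/GATA1s, 3.79 and 3.82 in WT/GATA1s, 4.76 and 4.31 in ERG Tg, and 3.65 and 3.60 in WT. E12.5 arrays gave 3.74 and 3.61 in ERG/GATA1s, 3.77 and 3.70 in WT/GATA1s, 3.49 and 3.50 in ERG Tg, and 3.64 and 3.82 in WT. The 4 E14.5 arrays with the transgene lay above all the others, and the other 12 lay between 3.49 and 3.82. Serpinb9 rose by 0.91 ± 0.14 in ERG Tg against WT at E14.5 (limma, adjusted p = 0.00515; 2 of 2 pairs). Because both WT arrays were dim, the rise was at least 1.74-fold when the dim level stood in for WT. Together with the fall of Serpinb1a this made 2 of 6 members called, beside 1.69% of all probe sets.

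Leaving out the E14.5 WT array labelled female ended both calls: the adjusted p was 0.0772 for Serpinb1a and 0.0563 for Serpinb9. They were also lost without the E14.5 ERG Tg array labelled female (0.169 and 0.194) and with only the arrays compared in the fit (0.581 for each). In ERG/GATA1s against WT/GATA1s at E14.5, Serpinb9 was the 1 of 6 members called, beside 1.63% of all probe sets. It rose by 0.64 ± 0.14 (adjusted p = 0.0424), and was not called without the 3 doubtful arrays (0.64, adjusted p = 0.313) or with only the arrays compared in the fit (adjusted p = 0.208). Dropping the sex term (0.0527), taking the Y-linked level in its place (0.0531), keeping all probe sets (0.0526) and median centring of the arrays (0.062) ended it too. That call was also lost without either array of E14.5 ERG/GATA1s, E14.5 WT/GATA1s, E12.5 WT/GATA1s or E12.5 ERG Tg, where the adjusted p was 0.0503 to 0.317.

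Whether the effect of ERG differs between E14.5 and E12.5 was tested over both GATA1 backgrounds. Serpinb9 passed, at 0.92 ± 0.14 (limma, adjusted p = 0.00698), 1 of 6 members beside 1.17% of all probe sets. Serpinb6b came next (0.94 ± 0.24, adjusted p = 0.0881), and it passed with labelled sex as a block within each stage (0.0499) and without the female-labelled E12.5 ERG/GATA1s (0.0177) or male-labelled E14.5 WT array (0.0216). Without the 3 doubtful arrays the Serpinb9 difference was 0.91 and did not pass (adjusted p = 0.155). Over both stages, 0 of 6 members passed limma's test in ERG Tg against WT, beside 0.283% of probe sets, and 3 of the 6 had an unadjusted p under 0.05. Likewise 0 of 6 passed in ERG/GATA1s against WT/GATA1s, with 2 at an unadjusted p under 0.05, beside 0.117%.

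Gzmb, the gene of granzyme B, ran from 3.07 to 3.60 and so was dim in every array. The genes closest to Serpinb9 over the 16 arrays were Txnip (0.934), Nrip3 (0.933) and Cnrip1 (0.926). Nrip3 signal at E14.5 was 7.98 and 7.14 in ERG/GATA1s, 4.17 and 3.94 in WT/GATA1s, 8.42 and 7.77 in ERG Tg, and 4.28 and 4.01 in WT. As for Serpinb9, the 2 transgenic genotypes were high at that stage.

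Serpinb6b, a close relative of Serpinb6a, was highest in the same group. Its signal at E14.5 was 7.02 and 6.79 in ERG/GATA1s, 6.29 and 6.41 in WT/GATA1s, 7.49 and 7.40 in ERG Tg, and 6.41 and 6.82 in WT. At E12.5 it was 6.32 and 5.37 in ERG/GATA1s, 6.17 and 6.27 in WT/GATA1s, 6.12 and 5.75 in ERG Tg, and 6.31 and 5.79 in WT. The 2 E14.5 ERG Tg arrays lay above all others, while the E12.5 groups overlapped. In ERG Tg against WT at E14.5 its difference of 0.83 ± 0.24 did not pass (limma, adjusted p = 0.131), though it did with array weights (0.043). With the male-labelled E14.5 WT array left out the difference was 1.17, and it passed. Either E12.5 ERG/GATA1s array left out also gave a call (adjusted p = 0.0495). The closest genes were Rheb (0.957), a GTPase that activates mTORC1, Siae (0.954) and Micu2 (0.943).

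The RefSeq windows of Serpinb6b (chr13:32965011-32965310) and Serpinb9 (chr13:33004291-33004590), both on the plus strand of GRCm38.p6, are shown because these are the 2 members highest in E14.5 ERG Tg and ERG is an ETS factor. Capitals again mark the letters of the motifs searched, here ETS.
Serpinb6b: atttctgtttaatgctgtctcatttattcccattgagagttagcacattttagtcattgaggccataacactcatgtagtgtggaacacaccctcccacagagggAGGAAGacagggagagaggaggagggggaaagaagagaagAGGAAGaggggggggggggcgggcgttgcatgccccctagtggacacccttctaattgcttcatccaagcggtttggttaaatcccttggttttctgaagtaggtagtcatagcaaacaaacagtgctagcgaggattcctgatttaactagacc
Serpinb9: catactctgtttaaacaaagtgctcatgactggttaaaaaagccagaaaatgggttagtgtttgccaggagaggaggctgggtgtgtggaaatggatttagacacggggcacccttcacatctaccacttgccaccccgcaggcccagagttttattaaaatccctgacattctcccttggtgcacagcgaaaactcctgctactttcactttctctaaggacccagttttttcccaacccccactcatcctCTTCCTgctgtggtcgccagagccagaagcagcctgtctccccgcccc
Serpinb6b holds 2 ETS matches, which begin 145 and 105 bases before the start, and Serpinb9 holds 1, from base 3 after the start. Both Serpinb6a windows hold 2 as well. Such a match is common, since 46.5% of all windows hold one. None of the chromosome 13 windows held here, which lack Serpinb1a, had a GATA or an AP-1 match.

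Serpinb6a differed by stage and passed in no genotype comparison. Its signal at E14.5 was 5.79 and 6.02 in ERG/GATA1s, 5.62 and 5.98 in WT/GATA1s, 5.88 and 5.74 in ERG Tg, and 5.65 and 5.87 in WT. At E12.5 it was 4.95 and 4.30 in ERG/GATA1s, 4.70 and 4.82 in WT/GATA1s, 4.49 and 4.84 in ERG Tg, and 4.55 and 4.74 in WT. All 8 arrays of E14.5 lay above all 8 of E12.5. The rise was 1.15 ± 0.10 averaged over genotypes (2.21-fold; limma, adjusted p = 9.5e-07). By genotype it rose by 1.28 in ERG/GATA1s, 1.04 in WT/GATA1s, 1.15 in ERG Tg and 1.12 in WT, each past the threshold. In ERG/GATA1s it was 0.87 and not past it without the 3 doubtful arrays (adjusted p = 0.0762).

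Stage separated most of the array, and the serpins' count has to be read against that. In E14.5 against E12.5, 5 of the 6 tested members were called, 3 higher and 2 lower, where 56.2% of all probe sets were called. Serpinb6b rose by 0.82 ± 0.12 (adjusted p = 8.65e-05) and Serpinb9 by 0.44 ± 0.07 (adjusted p = 0.000189). Serpinb1a fell by 0.34 ± 0.10 (limma, adjusted p = 0.0114), a call that did not hold without the 3 doubtful arrays (-0.36). Serpinb2, counted among the 2 lower, differed by -0.72 ± 0.15 (-0.60 without the 3 doubtful arrays). This is a description, since the WT/GATA1s arrays in the average took part in its choice. By genotype it differed by -1.61 in WT/GATA1s, -0.58 in WT, -0.765 in ERG Tg and 0.09 in ERG/GATA1s. The Serpinb1a call was also lost with the Y-linked level as covariate (0.0806). Serpinb10 differed by -0.35 ± 0.20, a description for the same reason as Serpinb2.

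Calls were also made within each genotype. The tests of ERG by stage and GATA1s by stage, which called Serpinb9 alone, compare stage differences only as averages over both backgrounds of the other factor. Whether the stage differences of single genotypes differ from one another was not tested. In ERG Tg, 4 of 6 members were called beside 17.6% of probe sets. Serpinb6b rose by 1.51, Serpinb6a by 1.15 and Serpinb9 by 1.04, and Serpinb1a fell by 1.15 (limma, adjusted p = 0.00188). With the dim level in place of the dim E12.5 arrays, the mean Serpinb9 rise was 1.74-fold. In ERG/GATA1s, 3 of 6 were called beside 21.9%: Serpinb6a, Serpinb6b (1.06) and Serpinb9 (1.62-fold by means, counted in the same way). Without the doubtful arrays the adjusted p of these 3 was 0.0762, 0.382 and 0.137. In WT/GATA1s, 2 of 6 were called beside 22.5%, Serpinb6a and Serpinb2. The Serpinb2 fall of 1.61 (1.54 without the 3 doubtful arrays) is a description, since the WT/GATA1s arrays took part in its choice. In WT, Serpinb6a was the 1 called, beside 18.2%.

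**Figure D4:**
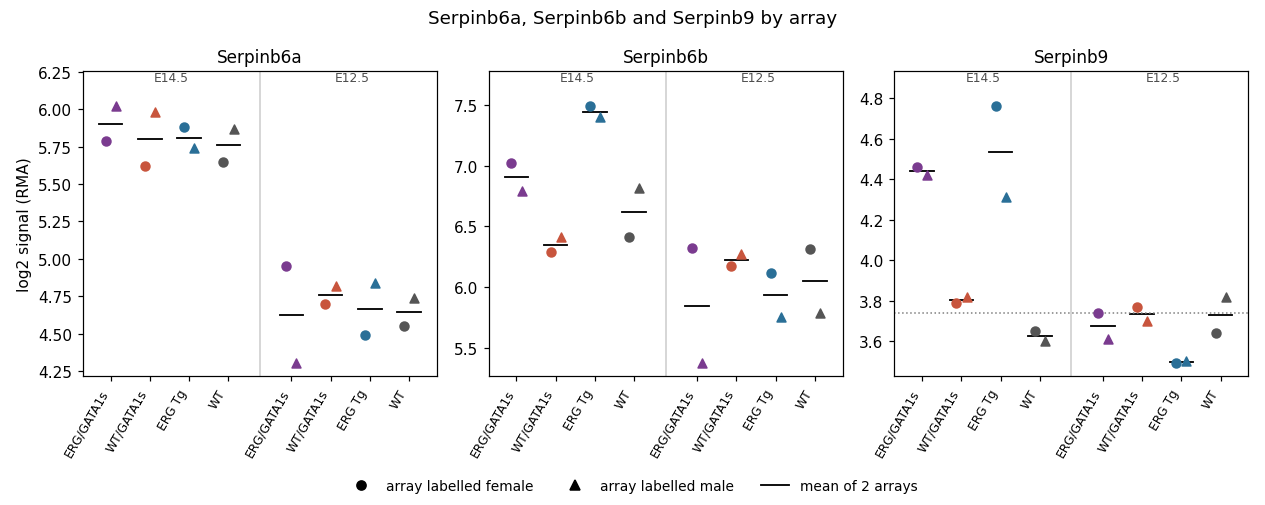
Log2 signal of Serpinb6a, Serpinb6b and Serpinb9 in each of the 16 arrays; bars are the mean of 2 arrays and the dotted line is the dim level of 3.74. Serpinb6a is higher in all 8 arrays of E14.5, Serpinb6b is highest in E14.5 ERG Tg, and Serpinb9 leaves the dim level most clearly in the 2 transgenic genotypes of E14.5.

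Genes outside the clade shifted with stage too. All 12 measured serpins of other clades rose (median 1.59), as did all 13 liver parenchyma genes (median 1.92) and all 13 macrophage genes (median 1.04). Of the 16 immediate early and stress genes, 15 fell and none rose (median -1.13), and of the 16 granulocyte and monocyte genes 13 fell and 2 rose (median -0.66). Leaving out the 3 doubtful arrays, 11 of the 12 other serpins, 12 of the 13 macrophage genes and all 13 liver genes rose, and 15 immediate early and stress genes and 11 granulocyte and monocyte genes fell. The share of these groups in the serpin stage differences was not tested. The genes closest to Serpinb6a were Cox6a1 (0.976), a subunit of cytochrome c oxidase, Robo2 (0.975) and Mettl21a (0.975), and those closest to Serpinb8 were Plec (0.947), Rapsn (0.935) and Tmem158 (0.93).

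The rest of the clade was largely dim on these arrays. Of 21 other clade B genes, 17 had a probe set of their own, and 16 of these did not reach the dim level in any array. Serpinb9b was the exception, at 4.03 to 6.28, and it was called in none of the comparisons. Its E14.5 signal was 6.28 and 4.08 in ERG/GATA1s, 4.09 and 4.03 in WT/GATA1s, 5.07 and 4.50 in ERG Tg, and 4.03 and 4.12 in WT. At E12.5 its ERG Tg arrays gave 4.32 and 5.62. Both E14.5 ERG Tg arrays, the female-labelled one of E14.5 ERG/GATA1s and the male-labelled one of E12.5 ERG Tg were higher than the rest, and the spread within the E14.5 ERG/GATA1s and E12.5 ERG Tg pairs exceeded the differences between group means.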

How the data were processed

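RNA from fetal liver suspensions was hybridised to 16 Affymetrix whole-transcript arrays, per the labels. Log2 signal as deposited came from RMA, run by the authors, per the submitters' processing notes (no version given). RMA as a method brings arrays to a common distribution, so each value is relative to the rest of its array. No scanner files were used, so background correction could not be varied.

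Of 28270 probe sets, 21780 were paired with 1 gene symbol. Each symbol kept its probe set with the highest mean, and those above 3.74 on at least 2 arrays were tested: 16258 units, 15742 with 1 symbol. Serpinb8 did not pass. One model held all arrays (limma 3.58.1 on R 4.3.3; 8 group means, labelled sex as covariate, 7 residual degrees of freedom, two-sided, Benjamini-Hochberg, threshold 0.05). Comparisons over both stages average the 2 stage differences. The members, the gene lists and the alternatives were chosen with earlier results of these data known. Called members were named in each comparison and the others in part, with the 3 most correlated genes of each member, neighbouring genes, and the largest called members of each list. The fits were tested on simulated data. The alternatives varied filter, scaling, sex term, arrays fitted, weights, eBayes settings and probe sets, and left out each array in turn.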

Additional observations from a re-analysis of the deposited data

Results flagged for a closer look

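Serpinb9 stood out because the effect of the ERG transgene on it differed between stages by a direct test. The difference between E14.5 and E12.5 was 0.92 ± 0.14 (SE) on the log2 scale, averaged over both GATA1 backgrounds (limma, adjusted p = 0.00698; 0.155 without the 3 arrays of doubtful sex label). At E14.5 the 4 transgenic arrays lay at 4.31 to 4.76, and at E12.5 the 4 transgenic arrays lay at 3.49 to 3.74, at or below the dim level.

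For Serpinb1a the ERG by GATA1s interaction at E14.5 passed the test with all arrays, a call that many alternatives ended. The interaction was 1.85 ± 0.28 (limma, adjusted p = 0.021): Serpinb1a differed by 0.69 in ERG/GATA1s against WT/GATA1s, and by -1.16 in ERG Tg against WT. The granulocyte and monocyte list moved with it, with 5 of its 16 genes called in that interaction, all positive (median 1.43), and 0 of them without the 3 arrays of doubtful sex label; its part was not tested. The Serpinb1a call was lost under 6 of the other settings (adjusted p = 0.0529 to 0.249) and in 6 of the 16 fits that left out 1 array (0.0658 to 0.145).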

How the results depend on the processing

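Across 12 alternative settings and 16 fits that left out 1 array each, 3614 changes of a member were recomputed. In 2752 of them neither fit made a call, so there was no called direction to reverse, and 125 of these differed in sign. Among the rest no called direction was reversed. The 3 rises in ERG/GATA1s against ERG Tg, in Serpinb1a, Serpinb2 and Serpinb10, stood under every alternative run over both stages. Without the 3 arrays with sex markers that contradict the label, the number of members called was 1 in WT/GATA1s against WT, 3 in E14.5 against E12.5 and 0 for the ERG effect that differs between stages. That last number was also 0 under the stricter filter on dim probe sets, which removes Serpinb9, and it was 2 with labelled sex as a block within each stage, a setting chosen after seeing the data. With 1 array left out, the number called was 1 to 2 in WT/GATA1s against WT (a description, since the members were chosen on it), 0 to 1 in ERG Tg against WT, 0 to 1 for the ERG by GATA1s interaction, 0 to 1 for GATA1s by stage and 1 to 2 for ERG by stage. The cause was not tested. Both Serpinb8 and Serpinb9 lie near the dim level, which limits their changes. The labels carry no replicate numbers, so arrays were paired by stage and labelled sex; as a block within stage this ended no call on a member.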
